A study of Mus musculus with 8 samples.

Results

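The fatty acid elongases and desaturases of mouse liver were examined as 10 genes, chosen by symbol: the 6 elongases Elovl1, Elovl2, Elovl3, Elovl5, Elovl6 and Elovl7, the 3 desaturases Fads1, Fads2 and Fads3, and the ketoacyl reductase Hsd17b12. They are 10 of the 16796 genes listed in the deposited tables, and all 10 had counts in every library and passed the filter on low counts. The family was singled out because Elovl3 rose strongly in these same livers, so the difference in Elovl3 is described here without a test. The other 9 belong to it by enzyme family.

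Whole-liver RNA was sequenced in 8 libraries, 1 per mouse. The WT group held mice 164, 165, 166 and 167, and the E4bp4-LKO group held mice 143, 144, 145 and 179. E4bp4-LKO mice carry a liver-specific knockout of E4bp4, also called Nfil3, a basic leucine zipper repressor of transcription. All 8 mice, controls included, were given a NASH diet, a diet used to induce fatty liver with inflammation and fibrosis, for 20 weeks from 2 months of age, so no chow-fed liver enters any comparison. The Cre driver, strain, sex, littermate status and time of day at collection were not given in the sources used here, and the bulk samples mix hepatocytes with all other liver cells.

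Fatty acids are lengthened in the endoplasmic reticulum by a cycle in which an Elovl enzyme joins malonyl-CoA to an acyl-CoA, Hsd17b12 reduces the product, a Hacd enzyme removes water and Tecr makes the last reduction. Each Elovl enzyme prefers its own chain lengths and degree of saturation, while Fads1 and Fads2 add double bonds to dietary linoleic and alpha-linolenic acid on the way to arachidonic acid and docosahexaenoic acid. In liver these enzymes help set the acyl chains of membrane lipids and stored triglyceride, and several of them are known targets of SREBP-1c, LXR and PPAR-alpha.

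Library totals ranged from 23805540 to 32290265 estimated counts, and a floor of 3 counts corresponded to 0.0929 to 0.126 CPM, the counts per 1000000 counts. WT mice 164 and 165 lay furthest from the E4bp4-LKO mice on the first principal component of log2 CPM, which carried 52.7% of the variance. They lay at -49.3 and -30.1, against -11.1 and -10.4 for the other WT mice and 19.2 to 31.2 for the E4bp4-LKO mice. Mouse 165 lay between mouse 164 and the other WT mice, so the values form a gradient within WT rather than a separate pair. Results that rest on mice 164 and 165 are given with and without them. Fits without them hold fewer WT mice, so a lost call there need not mean a smaller difference. Nfil3 itself measured 11.4, 8.79, 12.1 and 16.5 CPM in WT mice 164 to 167 and 3.33, 6.22, 6.14 and 3.35 CPM in E4bp4-LKO mice 143, 144, 145 and 179, with no overlap between the groups (log2 fold change -1.35, adjusted p = 0.0121 by edgeR's quasi-likelihood test; exact two-sided permutation p = 0.0286, the smallest that 4 against 4 allows). Across all genes, 1436 of 13244 tested passed an adjusted p of 0.05, 578 of them higher and 858 lower in E4bp4-LKO liver. When library totals replaced the TMM scaling, the median of all genes shifted by -0.158 on the log2 scale and the split became 291 higher among 1951.

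Of the 9 members other than Elovl3, 1 passed the test over all genes: Elovl7, which was lower in E4bp4-LKO liver. The remaining 8 did not pass, and their 95% intervals for the ratio of E4bp4-LKO to WT lay between 0.626-fold (Fads3) and 1.43-fold (Elovl2). None of the 9 passed as higher; at an unadjusted p of 0.05 edgeR gave 1 higher gene, Elovl2, and 1 lower, Elovl7, and DESeq2 called the same pair after adjustment. For reference, 10.8% of all genes tested were called (4.36% higher and 6.48% lower), but the contrast is the one from which the family was picked, so nothing is read from the comparison of these shares. The WT and E4bp4-LKO mice did not overlap for 3 of the 10 genes, Elovl3 and Elovl2 above and Elovl7 below. Elovl3 was chosen for its rise, so its gap follows from that choice. Of all genes tested, 18.5% did not overlap (8.8% above and 9.68% below). On the deposited FPKM, which carry no TMM scaling, Elovl2 overlapped (159 to 193 in WT, 175 to 197 in E4bp4-LKO) and Elovl1 did not (32.1 to 40 against 24.7 to 31.8). Elovl7 was past a 2-fold difference, as was Elovl3, by which the family was picked. Of all genes, 4.19% were past 2-fold, and nothing is read from these shares either. The median log2 fold change of the 10 members was -0.07, against 0.01 for all genes, and the median absolute value was 0.16 in both.

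**Figure D1:**
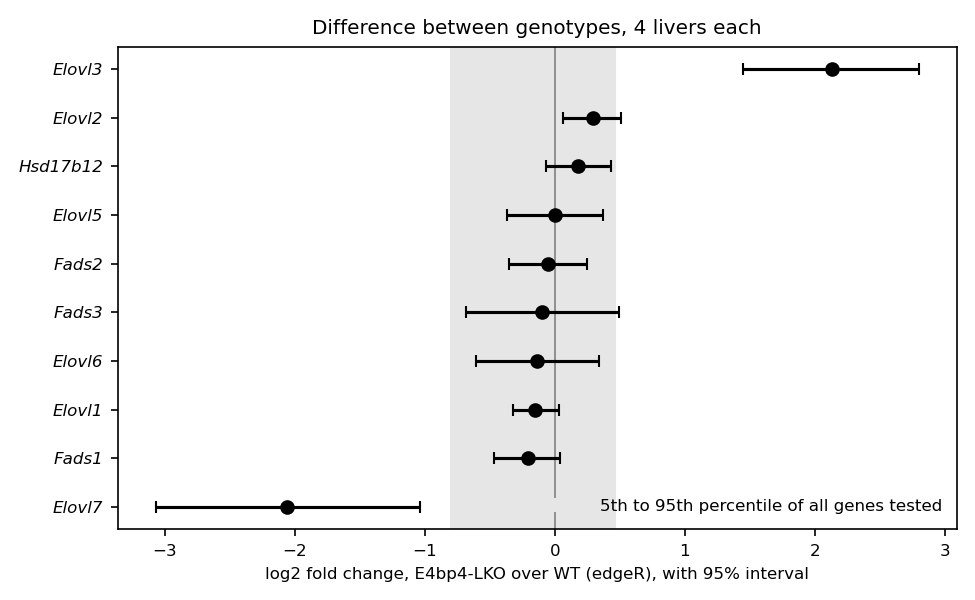
Log2 fold change of each of the 10 genes, E4bp4-LKO against WT, with its 95% interval from the edgeR fit; the grey band runs from the 5th to the 95th percentile of all genes tested (-0.80 to 0.46). Elovl3 (2.13) and Elovl7 (-2.06) lie on opposite sides of 0, and the other 8 lie between -0.21 and 0.29.

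Elovl3 elongates saturated and monounsaturated acyl chains and is known from skin, brown fat and the liver of male mice. It measured 12.9, 16.1, 28.4 and 33.1 CPM in WT mice 164, 165, 166 and 167 and 123.1, 94.4, 82.7 and 93.6 CPM in E4bp4-LKO mice 143, 144, 145 and 179. Every E4bp4-LKO liver was above every WT liver, and within WT mice 164 and 165 were the lowest. The means were 22.6 ± 9.67 CPM (SD, n = 4) and 98.4 ± 17.3 CPM (SD, n = 4), a log2 fold change of 2.13 with a standard error of 0.30, or 4.37-fold. Without WT mice 164 and 165 the log2 fold change was 1.69, and leaving out each mouse in turn gave 1.93 (without WT mouse 164) to 2.37 (without WT mouse 167). Markers of fat cells were examined beside it, since Elovl3 is a brown fat gene: Adipoq, Plin1, Ucp1 and Retn were at or below 0.105 CPM in all 8 livers. Cfd, adipsin, measured 0.636, 1.92, 20 and 9.51 CPM in WT mice 164 to 167 and 86.5, 89.8, 161.5 and 19.2 CPM in E4bp4-LKO mice 143, 144, 145 and 179 (a fitted ratio of 11.3, adjusted p = 0.0754). Cidea, also on that list, measured 20.6, 44.3, 89.1 and 77.4 CPM in WT mice 164 to 167. It measured 25.9, 45.8, 16.5 and 79.4 CPM in E4bp4-LKO mice 143, 144, 145 and 179 (log2 fold change -0.47, adjusted p = 0.674 by edgeR). Of the 8 genes of that list 3 could be tested and 1, Car3, passed as higher, while DESeq2 called 2. Car3 makes up nearly all of the list's summed level (1261 to 2809 CPM in WT, 4141 to 4518 CPM in E4bp4-LKO). Car3, Cfd and Cidea were measured where Adipoq, Plin1, Ucp1 and Retn were near 0, so nothing about fat cells is read from them. Hepatocyte markers had 1 of 8 higher and none lower by edgeR, with summed levels of 57641 to 76726 CPM in WT and 75411 to 93402 CPM in E4bp4-LKO liver. In that list 3 had an unadjusted p under 0.05 by edgeR, and DESeq2 called 3. Tat, 1 of those under 0.05, was lower (log2 fold change -0.35, adjusted p = 0.0917 by edgeR). Without WT mice 164 and 165, 1 marker was higher and 1 lower. The part of fat cells and hepatocytes in the difference in Elovl3 was not tested, and in bulk liver fewer cells of a type and less RNA per cell cannot be told apart.

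**Figure D2:**
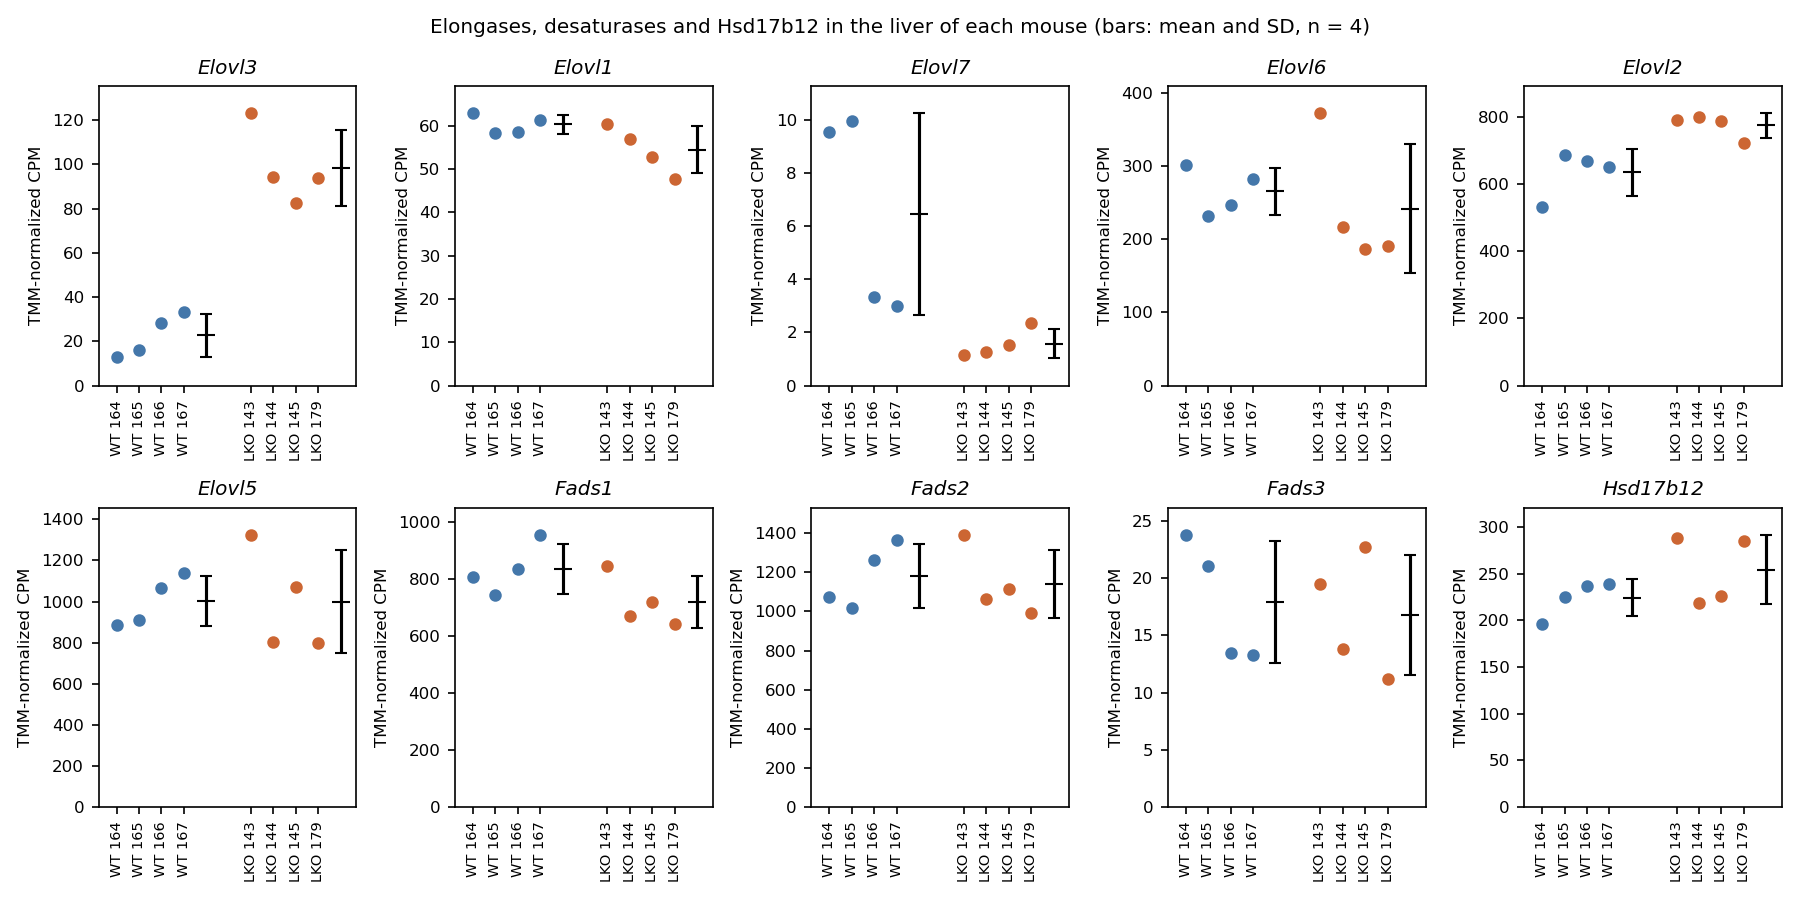
CPM of each of the 10 genes in each mouse, WT and E4bp4-LKO, with the mean and SD of 4 mice per group; every axis starts at 0. The groups do not overlap for Elovl3, Elovl2 and Elovl7, and for the other 7 genes they do.

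Elovl7, an elongase of saturated very-long-chain acyl-CoA, was the scarcest member and was lower in E4bp4-LKO liver. It measured 9.54, 9.95, 3.33 and 3.01 CPM in WT mice 164 to 167 and 1.15, 1.28, 1.51 and 2.37 CPM in E4bp4-LKO mice 143, 144, 145 and 179. The groups did not overlap, but WT mice 164 and 165 were well above the other WT mice. The means were 6.46 ± 3.80 CPM (SD, n = 4) and 1.58 ± 0.547 CPM (SD, n = 4), which made Elovl7 4.16-fold lower (log2 fold change -2.06, standard error 0.45, 95% interval -3.07 to -1.04, adjusted p = 0.0243 by edgeR's quasi-likelihood test). Without mice 164 and 165 the log2 fold change was -1.02 and the call was lost (adjusted p = 0.0765). The call was also lost when WT mouse 164 or 165 or E4bp4-LKO mouse 143, 144 or 145 was left out alone, with adjusted p up to 0.0747 and log2 fold changes from -2.04 to -1.76. Elovl7 had the lowest counts of the family, 31 to 330 per library.

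Several markers of other liver cells were highest in WT mice 164 and 165 and lower in E4bp4-LKO liver, as Elovl7 was. The summed level of 8 cholangiocyte markers was 498, 366, 211 and 212 CPM in WT mice 164 to 167 and 98.6 to 129 CPM in E4bp4-LKO mice, and 1 of 6 tested, Spp1, passed as lower. Spp1, osteopontin, makes up most of that sum and is made by other cells too; the defining markers Krt7, Krt19 and Epcam had log2 fold changes of -1.41, -1.13 and -1.29 without passing (adjusted p = 0.0838, 0.131 and 0.102). In that list 5 of 6 had an unadjusted p under 0.05 by edgeR, and DESeq2 called 4. Stellate cell markers had 4 of 10 lower (summed level 998 to 1731 CPM in WT, 707 to 930.1 CPM in E4bp4-LKO), and 3 of 9 macrophage markers, Cd68, Trem2 and Gpnmb, were lower (summed level of the list 371 to 535 CPM against 281 to 427 CPM). Of the list's other markers, Marco (log2 fold change 1.76, adjusted p = 0.173 by edgeR) and Timd4 (1.16, adjusted p = 0.0809) lay above 0 without passing. Clec4f (-0.03), Adgre1 (-0.14), Vsig4 (-0.24) and Csf1r (-0.24) lay below 0 without passing, so resident macrophage markers did not move together. Without mice 164 and 165 these counts of lower markers were 1, 0 and 1. The part of these cells in the difference in Elovl7 was not tested. Sinusoidal endothelial and lymphocyte markers had no call by edgeR among 8 tested each, with 1 gene in each list at an unadjusted p under 0.05 (Kdr and Cd4), and DESeq2 called 1 and 0 of them.

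E4BP4 is known to bind D-box elements, so the promoter windows at hand were searched for the D-box and for motifs of other known regulators. RefSeq promoter windows (GRCm38.p6; 250 bases before to 50 after the start) were matched by symbol for 8 of the 10 genes, giving 10 windows, and both strands were read. Elovl3 and Fads1 were not matched, so neither was searched. The D-box spellings TTATGTAA and TTACGTAA occurred in none of these 10 windows, which include none of Elovl3, where 0.938% and 0.119% of all 32851 windows hold them. The sterol element TCACNCCAC (1.24% of all windows), the STAT element TTCNNNGAA (8.3%) and the TATA box TATAAA (13.6%) were also in none. The GC box GGGCGG was in 7 of 10 windows (35.7% of all), the CCAAT box CCAAT in 4 (37.4%) and the E-box CACGTG in 1, that of Elovl5 (7.15%). Both windows of Elovl1 are among those 7. The 10 windows were 49.6 to 87.2% G or C before the start, against a median of 52.4% over all windows. The GC box count is therefore not read as a trait of the family. A match describes the letters only, and the lack of one says only that these letters are not in this window. The promoter of Elovl7, the member that fell, is shown from chr13:108214154-108214403 (plus strand), 73.6% G or C, with its 3 GC box matches, 2 on the plus strand and 1 on the minus strand, in capitals.
Elovl7: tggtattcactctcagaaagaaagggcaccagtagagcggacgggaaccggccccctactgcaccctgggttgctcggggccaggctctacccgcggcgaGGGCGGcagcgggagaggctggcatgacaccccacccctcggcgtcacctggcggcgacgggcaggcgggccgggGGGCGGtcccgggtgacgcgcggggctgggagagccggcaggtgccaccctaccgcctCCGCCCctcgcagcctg

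Elovl5, Elovl2, Fads1 and Fads2 make the long polyunsaturated fatty acids of liver, and they were the 4 most abundant members by FPKM in both groups. None of them passed the test. Fads2, which makes the first desaturation of linoleic acid, measured 1073, 1020, 1263 and 1366 CPM in WT mice 164 to 167 and 1392, 1063, 1117 and 992 CPM in E4bp4-LKO mice 143, 144, 145 and 179. The groups overlapped throughout (log2 fold change -0.05, 95% interval -0.35 to 0.25, adjusted p = 0.852). Fads1, which makes the later desaturation that yields arachidonic acid, measured 807, 745, 836 and 956 CPM in WT and 847, 670.0, 720.0 and 644 CPM in E4bp4-LKO liver. Mice 144, 145 and 179 lay below every WT mouse and 143 lay among them (log2 fold change -0.21, 95% interval -0.47 to 0.04, adjusted p = 0.261). On library totals without TMM, and in limma on log2(FPKM + 1), the Fads1 log2 fold change was -0.37 and passed, with adjusted p = 0.0386 and 0.0309.

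Elovl5, which elongates the products of Fads2, measured 888, 911, 1064 and 1141 CPM in WT mice 164 to 167 and 1325, 801, 1070 and 800.3 CPM in E4bp4-LKO mice 143, 144, 145 and 179. Its group means were 1001 ± 122 and 999 ± 252 CPM (SD, n = 4), and mouse 143 was the highest of all 8 (95% interval of the log2 fold change -0.37 to 0.37, adjusted p = 0.995). Elovl2, which elongates longer polyunsaturated chains on the way to docosahexaenoic acid, measured 532, 687, 671 and 653 CPM in WT mice and 792, 800.1, 788 and 722 CPM in E4bp4-LKO mice. All 4 E4bp4-LKO livers were above all 4 WT livers in CPM. The difference was small, with means of 636 ± 70.6 and 776 ± 36.3 CPM (log2 fold change 0.29, standard error 0.10, 95% interval 0.06 to 0.51), and it did not pass by edgeR (adjusted p = 0.098) but passed by DESeq2 (adjusted p = 0.0215). Without WT mice 164 and 165 the log2 fold change of Elovl2 stayed above 0, as it did under all 16 alternatives, which gave 0.14 to 0.33.

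Over the 8 livers the profiles of Elovl5 and Fads2 lay near each other. With each gene's log2 CPM centred on its own mean over the 8 livers, they differed by 0.111 (root mean square), which made Fads2 the fourth nearest of 10810 genes to Elovl5. Fads1 and Fads2 differed by 0.10, each being the nearest member to the other. At least 5 genes outside the family lay nearer to each, at 0.074 (Tkt) to 0.088 (Thyn1) from Fads1. From Fads2 they lay at 0.065 (Slc22a15) to 0.090 (Ntan1). Fads3, Fads2 and Fads1 lie next to one another in the RefSeq gene order, and a link between position and profile was not tested. The promoters of Elovl5 and Fads2 are shown because these genes varied together among mice. They are chr9:77917115-77917364 (plus strand) for Elovl5, 55.6% G or C, with 1 E-box and 2 CCAAT boxes, both on the minus strand, in capitals, and chr19:10101504-10101753 (minus strand) for Fads2, 64.8% G or C, with 1 GC box in capitals. None of the motif types searched was in both windows.
Elovl5: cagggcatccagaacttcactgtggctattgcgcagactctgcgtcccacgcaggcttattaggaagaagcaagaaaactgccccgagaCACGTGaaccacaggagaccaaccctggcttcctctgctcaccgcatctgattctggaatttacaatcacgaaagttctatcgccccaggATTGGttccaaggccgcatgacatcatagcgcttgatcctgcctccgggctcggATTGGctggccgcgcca
Fads2: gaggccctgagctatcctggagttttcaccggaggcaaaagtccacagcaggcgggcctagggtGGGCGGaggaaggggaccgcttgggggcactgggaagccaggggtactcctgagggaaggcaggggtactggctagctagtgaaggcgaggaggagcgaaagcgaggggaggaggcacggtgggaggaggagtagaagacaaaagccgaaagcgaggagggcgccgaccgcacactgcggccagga

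Elovl6 and Elovl1 act on saturated and monounsaturated chains, as Elovl3 does, and neither passed. Elovl6, which turns palmitate into stearate, measured 301, 232, 246 and 282 CPM in WT mice 164 to 167 and 372, 216, 186 and 191 CPM in E4bp4-LKO mice 143, 144, 145 and 179. Mouse 143 was the highest of all 8 and the other E4bp4-LKO mice were below every WT mouse, so the group's SD was 88.1 CPM against 31.9 CPM in WT (log2 fold change -0.14, 95% interval -0.61 to 0.34, adjusted p = 0.726). Without mouse 143 the log2 fold change was -0.42 and passed (adjusted p = 0.0425). Elovl1, which makes the very long chains of sphingolipids, measured 58.4 to 62.9 CPM in WT and 47.7 to 60.3 CPM in E4bp4-LKO liver (log2 fold change -0.15, 95% interval -0.32 to 0.03, adjusted p = 0.253).

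Fads3, a desaturase of sphingoid bases, measured 23.8, 21.1, 13.5 and 13.3 CPM in WT mice 164 to 167 and 19.5, 13.8, 22.7 and 11.2 CPM in E4bp4-LKO mice 143, 144, 145 and 179. As for Elovl7, WT mice 164 and 165 were the higher pair within WT, but the groups overlapped (log2 fold change -0.10, 95% interval -0.68 to 0.49, adjusted p = 0.850), and without that pair the sign turned (0.33). Hsd17b12, the reductase shared by all the elongases, measured 196 to 239 CPM in WT and 219 to 288 CPM in E4bp4-LKO liver (log2 fold change 0.18, 95% interval -0.07 to 0.43, adjusted p = 0.324). The E4bp4-LKO mice 143 and 179 were above every WT mouse, and 144 and 145 lay among them.

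Among the E4bp4-LKO mice, mouse 143 had the highest value of its group for 7 of the 10 members (Elovl1, Elovl3, Elovl5, Elovl6, Fads1, Fads2 and Hsd17b12), and mouse 179 the lowest for 6. In the same mice Fasn was highest in 143 (1358 CPM) and lowest in 179 (788 CPM), and Scd1 ranged from 50463 CPM in 143 to 28604 CPM in 179. Within WT, mouse 167 was highest for 5 members, and mouse 164 was highest for Elovl1, Elovl6 and Fads3.

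**Figure D3:**
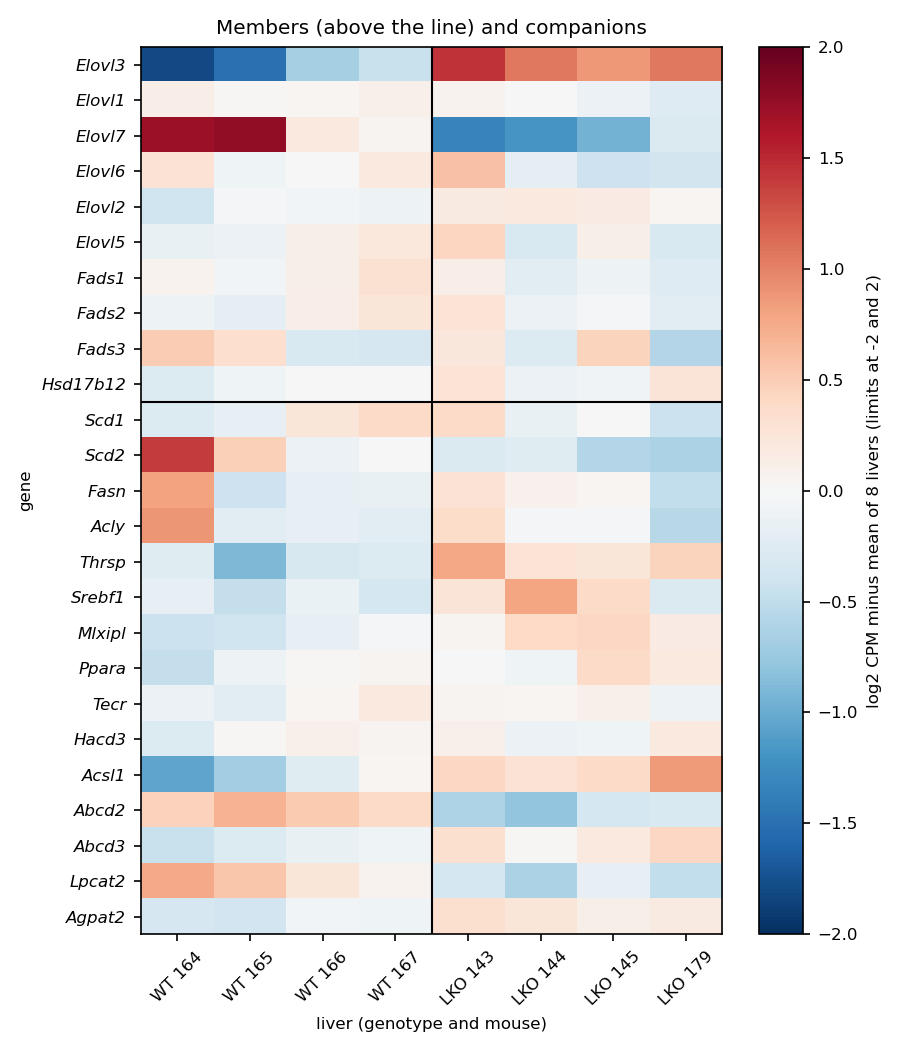
Log2 CPM of each gene in each mouse after subtraction of the gene's mean over the 8 mice, with the 10 members above the line and companion genes of lipid metabolism below it; red is above the mean and blue below. Elovl3 and Elovl7 carry the widest range among the members, and E4bp4-LKO mouse 143 is the highest of its group for 7 of the 10 genes.

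Levels were compared between genes on the deposited FPKM scale, which allows for transcript length. In WT liver the order of mean levels was Fads2, Elovl5, Fads1, Elovl2, Hsd17b12, Elovl6, Elovl1, Elovl3, Fads3 and Elovl7, from 826 ± 65.7 to 1.27 ± 0.812 FPKM (SD, n = 4). Neighbours in that order did not overlap over the 4 mice, except Elovl3 and Fads3. Elovl3 averaged 12.4 ± 4.52 FPKM in WT and 49.7 ± 9.27 FPKM in E4bp4-LKO liver, and moved from position 8 to position 6, above Elovl6 (38 ± 14.4 FPKM) and Elovl1 (28.3 ± 3.01 FPKM). In E4bp4-LKO liver the ranges of Fads1 and Elovl2, of Elovl3 and Elovl6, and of Elovl6 and Elovl1 overlapped, and the remaining neighbours did not. The FPKM ratio of Elovl3 to Elovl6 was 0.137, 0.223, 0.37 and 0.377 in WT mice 164 to 167 and 1.06, 1.4, 1.43 and 1.58 in E4bp4-LKO mice 143, 144, 145 and 179. Elovl3 was thus below Elovl6 in every WT liver and above it in every E4bp4-LKO liver.

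The summed FPKM of the 6 elongases was 641 ± 14 in WT and 642 ± 117 in E4bp4-LKO liver (SD, n = 4). Elovl3 made up 1.26 to 2.62% of that sum in WT and 6.41 to 8.62% in E4bp4-LKO liver, while Elovl5 made up 55.6 to 60.2% and 46.7 to 56.3%. Elovl3 thus remained a small part of elongase RNA in E4bp4-LKO liver, and Elovl5 and Elovl2 together were the larger part in all 8 livers. Among the desaturases Fads2 was 3.11 to 3.53 times Fads1 in WT and 3.6 to 3.84 times Fads1 in E4bp4-LKO liver, without overlap. Other ratios overlapped. Elovl5 was 1.82 to 2.4 times Elovl2 in WT and 1.38 to 2.3 times in E4bp4-LKO liver. Fads2 was 3.83 to 5.41 and 3.43 to 4.54 times Elovl2, and 2.1 to 2.27 and 1.96 to 2.49 times Elovl5. How often ratios of other genes fail to overlap was not computed, so nothing is read from the ratio of Fads2 to Fads1.

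**Figure D4:**
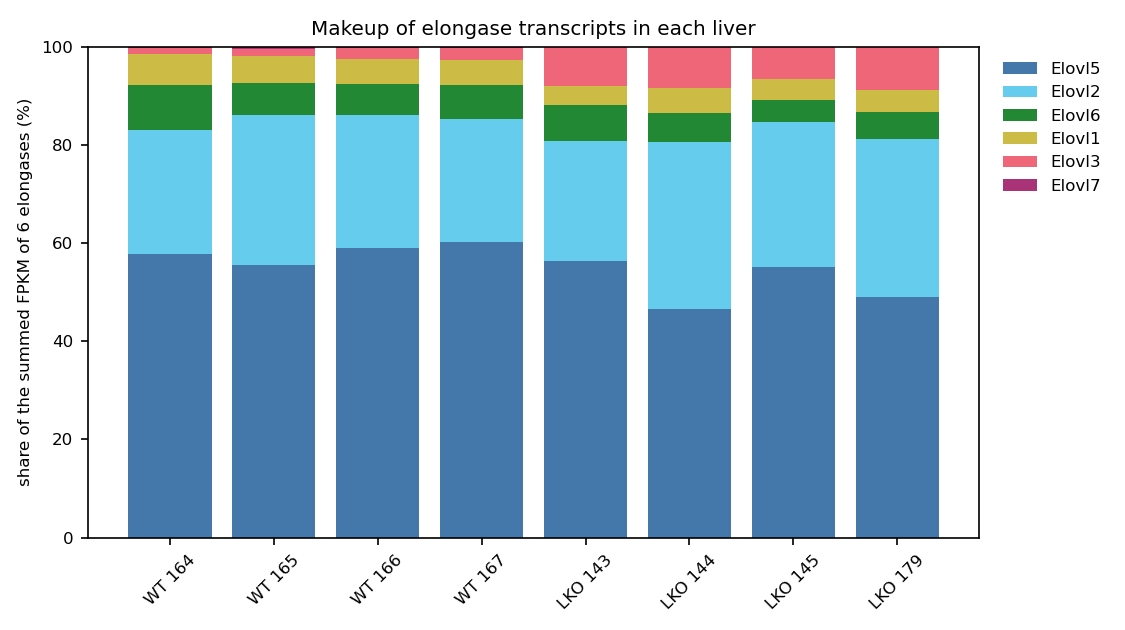
Share of each elongase in the summed FPKM of the 6 elongases, per mouse, as stacked bars. The Elovl3 share is 1.26 to 2.62% in the WT mice and 6.41 to 8.62% in the E4bp4-LKO mice.

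The partners of the elongation cycle showed no call by edgeR among 5 tested, none at an unadjusted p under 0.05 and none by DESeq2, while limma on FPKM called 1. Tecr measured 228 ± 28.3 and 233 ± 13.9 CPM and Hacd3 185 ± 21 and 191 ± 20 CPM in WT and E4bp4-LKO liver (SD, n = 4). Elovl4, the elongase of retina and skin, was at or below 0.0368 CPM, under the floor, in all 8 livers. Of 7 other lipid desaturases, 1 fell: Degs2, a dihydroceramide desaturase, from 1.65 ± 0.455 to 0.808 ± 0.0921 CPM by a log2 difference of -1.03 (adjusted p = 0.0271 by edgeR). Scd1, the main stearoyl-CoA desaturase of liver, measured 28604 to 50492 CPM over the 8 mice and differed by -0.09 on the log2 scale (adjusted p = 0.815), and Scd2 had -1.0 (adjusted p = 0.0856), with 65.6 CPM in WT mouse 164 and 16.1 to 35 CPM in the others. Ceramide synthases had no call by edgeR among 4 tested, 1 (Cers6) at an unadjusted p under 0.05, none by DESeq2 and 1 of 3 by limma on FPKM.

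Across all genes tested 10.8% were called, so single calls in these short companion lists are not read as a trait of a list. Upstream of elongation, 1 of 8 fatty acid synthesis genes rose: Thrsp, a lipogenic nuclear protein, at 316 to 500 CPM in WT and 701 to 1010 CPM in E4bp4-LKO liver (log2 fold change 0.87, standard error 0.16, adjusted p = 0.0111 by edgeR). This call was lost by leaving out no single mouse, nor WT mice 164 and 165 together (adjusted p = 0.0305). Fasn differed by -0.09 on the log2 scale (adjusted p = 0.864) and Acly by -0.18 (adjusted p = 0.73). Of 10 acyl-CoA synthetases and electron donors, 1 rose: Acsl1, which activates long-chain fatty acids, from 1050 ± 339 to 1999 ± 375 CPM, a log2 difference of 0.93 (adjusted p = 0.0275). Of 15 regulators, Mlxipl, which encodes ChREBP, rose (0.52, adjusted p = 0.0226) and the coactivator gene Ppargc1a fell (-0.45, adjusted p = 0.0437), while Srebf1 had 0.61 (adjusted p = 0.0682) and Ppara 0.25 (adjusted p = 0.273).

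Of the peroxisomal importers of fatty acids, Abcd3 rose by 0.48 on the log2 scale (adjusted p = 0.0273) and Abcd2 fell. Abcd2, an importer of very-long-chain acyl-CoA, measured 41.3 to 51.6 CPM in WT and 18.3 to 25.8 CPM in E4bp4-LKO liver (log2 fold change -1.02, standard error 0.11, adjusted p = 0.00102 by edgeR), and no single mouse nor the WT pair ended its call. Of 15 phospholipid acyltransferases, Agpat2 rose (0.43, adjusted p = 0.0232) and Lpcat2 fell (-0.84, adjusted p = 0.0119), while Lpcat3, which places polyunsaturated chains in phosphatidylcholine, had 0.11 (adjusted p = 0.598). The calls of Acsl1, Abcd3, Agpat2, Mlxipl, Ppargc1a and Degs2 were each lost when 1 of 2 to 6 mice was left out, with adjusted p up to 0.124, and those of all 6 and of Lpcat2 were lost without WT mice 164 and 165.

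Elovl3 is a male-biased gene of mouse liver, and other sex-biased genes were read beside it. Of 15 male-biased genes, 10 rose and none fell, and of 9 female-biased genes tested, 4 fell and none rose. Of all genes tested, 4.36% rose and 6.48% fell. Some genes lay on the other side of 0 without passing. These were the female-biased Cux2 (log2 fold change 0.86), Acot3 (0.35) and Cyp3a41a (0.31) and the male-biased Mup20 (-0.45). Hsd3b5, a steroid dehydrogenase of male liver, measured 0.0578 to 0.245 CPM in WT and 14.3 to 23.5 CPM in E4bp4-LKO liver (log2 fold change 7.27, adjusted p = 7.89e-07 by edgeR), and Slco1a1, an organic anion transporter, 8.03 to 32.4 and 209.6 to 362 CPM (4.01, adjusted p = 0.00318). Of the near-identical male-biased fatty acid hydroxylases, Cyp4a12b measured 27.1 to 58.7 CPM in WT and 150.4 to 369 CPM in E4bp4-LKO liver and passed (2.34, adjusted p = 0.00606), and Cyp4a12a did not pass (1.66, adjusted p = 0.0766); reads can be divided between the copies. The female-biased steroid hydroxylase gene Cyp2a4 measured 19.6 to 57.7 CPM in WT and 1.85 to 6.34 CPM in E4bp4-LKO liver (-3.64, adjusted p = 0.00606), and Cyp2b9 14.2 to 71.5 and 1.41 to 10.2 CPM (-3.40, adjusted p = 0.0385, lost in 7 of the 8 fits that left out 1 mouse). The male-biased genes C8a (0.86), Cyp2u1 (0.77), Mup7 (5.36) and Serpina1e (3.89) rose too, and the female-biased Cyp2b13 (-4.78) and Cyp17a1 (-1.27) fell, the call of Cyp17a1 being lost by leaving out any of 5 mice. Without WT mice 164 and 165, 4 male-biased genes rose and 1 female-biased gene fell. That fit holds fewer WT mice, and the genes that lost the call there kept their direction. The male-biased ones had log2 fold changes of 0.47 (C6) to 4.75 (Mup7) in that fit. The female-biased ones had -1.49 (Cyp17a1) to -3.90 (Cyp2b9). The Y-linked transcripts Ddx3y, Eif2s3y, Kdm5d and Uty were present in all 8 livers, at 11.5 to 70.3 CPM, and none passed by edgeR or DESeq2 or had an unadjusted p under 0.05. Of 12 PAR bZIP and clock genes, 1 rose: Tef, an activator that binds the D-box (0.34, adjusted p = 0.0472), a call lost by leaving out any of 6 mice; Dbp had 0.38 (adjusted p = 0.205).

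The genes whose profiles over the 8 livers were nearest to that of Elovl3, by the same root mean square measure on centred log2 CPM, were Susd4 (0.291), Mup10 (0.293), Mup16 (0.305), Aatk (0.327) and Nat8f5 (0.334). Susd4 encodes a membrane regulator of complement, Aatk a kinase, and the Mup genes major urinary proteins; Mup and Nat8 copies are near-identical, so their counts are uncertain. Susd4 measured 3.29, 3.08, 7.58 and 8.46 CPM in WT mice 164 to 167 and 15 to 25.9 CPM in E4bp4-LKO mice, with mice 164 and 165 lowest, as for Elovl3. The nearest to Elovl7 were Fndc10 (0.317), Cd63 (0.336), Prss8 (0.349), Shc2 (0.350) and Lgals3 (0.383). Cd63, a tetraspanin of late endosomes, measured 58.4, 61, 29.5 and 26.4 CPM in WT mice 164 to 167 and 11.2 to 16.1 CPM in E4bp4-LKO mice, and Lgals3, galectin-3, 90.6, 87.5, 50 and 39.9 against 18.7 to 20.5 CPM. The centring left the difference between the groups in place. The genes listed as nearest to Elovl3 had log2 fold changes of 1.68 (Aatk) to 2.48 (Mup16), against its own 2.13. Those nearest to Elovl7 had -1.42 (Prss8) to -2.31 (Shc2), against -2.06. The nearest members were Elovl2 to Elovl3 (1.029) and Fads3 to Elovl7 (1.045), with log2 fold changes of 0.29 and -0.10. Members with small group differences lie far from both genes by construction, so nothing further is read from these distances.

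**Figure D5:**
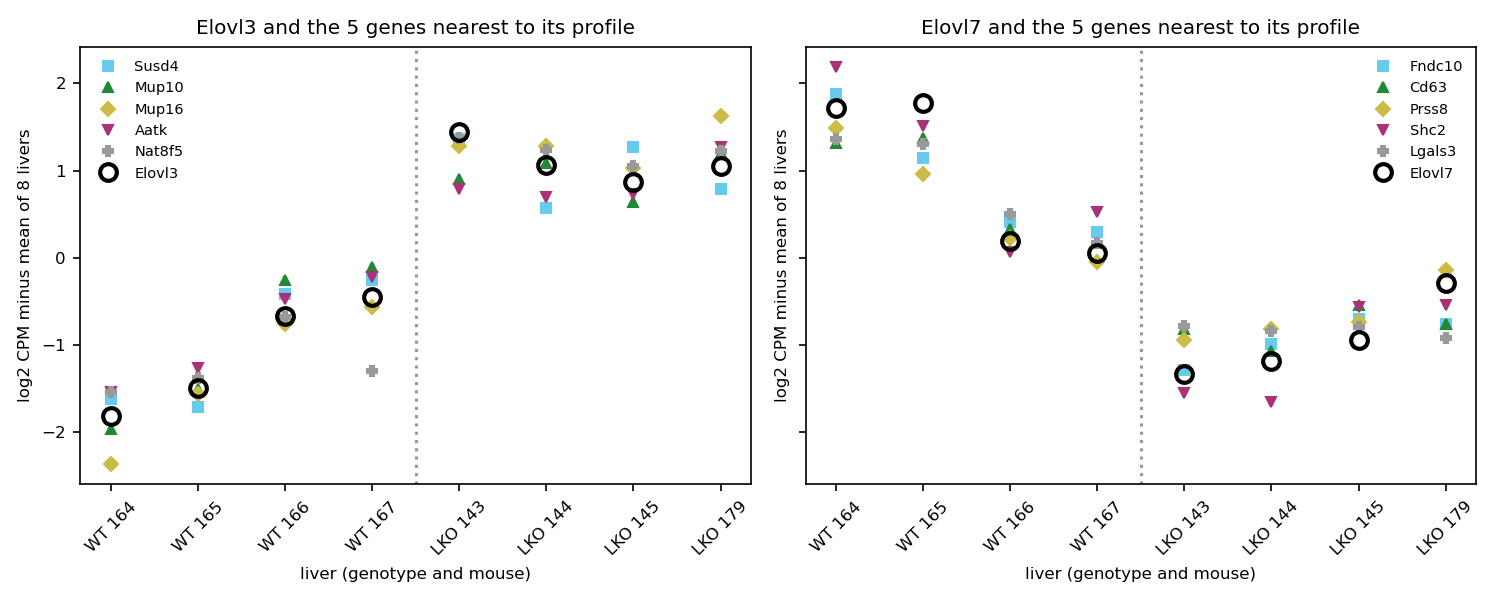
Centred log2 CPM per mouse for Elovl3 and Elovl7, each with the 5 genes of nearest profile, as log2 CPM less the mean of 8 livers. Elovl3 is lowest and Elovl7 highest in WT mice 164 and 165.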

How the data were processed

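Poly(A) selection or rRNA depletion (the labels name both) preceded random-primed library construction, per the labels' protocols. Reads were aligned with HISAT2, per the submitters' processing notes; its version, the quantifier, genome build and annotation release are among the details not given in these sources. Deposited tables hold, per gene, the authors' expected counts (25.9 to 27.3% of entries not whole) and the authors' FPKM. Estimated counts can divide reads between near-identical genes; 4 members have counts that are not whole. In all, 26 transcript entries were added to their genes by accession.

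Expected counts were rounded, filtered with filterByExpr (minimum count 10, total 15), scaled by TMM and fitted with edgeR 4.0.16 (R 4.3.3; quasi-likelihood, robust) on genotype with all 8 mice. The p-values were adjusted by Benjamini-Hochberg over 13244 genes, with a threshold of 0.05. Standard errors are the log2 fold change divided by the square root of F. CPM use TMM-scaled totals. DESeq2 1.42.0 and limma 3.58.1 on log2(FPKM + 1) or log2(FPKM + 0.1) were alternatives. The edgeR, DESeq2 and limma fits were tested on simulated data. No 2 libraries agreed within sampling noise. The members, 12 companion lists and 7 marker lists were chosen with earlier results of these data known. Named genes are the members, Nfil3, preset companions, the passing companions, 5 preset sex-biased genes and the 5 nearest profiles of each member described; marker genes and Dbp were added to these. Xist was not analysed here, and some companion and marker genes are not reported here.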

Additional observations from a re-analysis of the deposited data

Results flagged for a closer look

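In 22 groups of 4 mice (the 10 members and Nfil3), the highest or lowest mouse was set against the others. In E4bp4-LKO liver, Elovl2 in mouse 179, at 721.6 CPM, lay below the other 3 by 0.844 of the group's range, past Dixon's 95% critical value for 4 samples. Elovl6 in E4bp4-LKO mouse 143, at 371.8 CPM, lay above the other 3 by 0.838 of the range. Chance flags about 1 in 20 such groups.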

How the results depend on the processing

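The number of genes changed, 1436, became 2233 with DESeq2, 387 without WT mice 164 and 165 together, 2488 at an adjusted p of 0.1, and 506 (without E4bp4-LKO mouse 144) to 1539 (without WT mouse 167) when each mouse was left out. The count of elongases and desaturases changed, 1 of the 9 without Elovl3, became 0 with a filter of 5 CPM, under which Elovl7 was not tested, 2 with DESeq2 (Elovl2 added), 2 on library totals (Fads1 added), 0 without WT mice 164 and 165, 2 at an adjusted p of 0.1, and 0 to 1 when each mouse was left out. The count of companion genes changed, 25 of 112, became 7 without WT mice 164 and 165 and 14 to 26 when each mouse was left out. Those 25 include 10 male-biased and 4 female-biased genes, and 10.8% of all genes tested were called. The count is therefore not read as a trait of the lipid genes. The sign of Elovl5 (-0.00) turned to 0.00 with DESeq2 and with no filter and ranged from -0.17 to 0.09 over the fits that left out a mouse. The sign of Fads3 (-0.10) turned to 0.33 without WT mice 164 and 165 and ranged from -0.27 to 0.07, and that of Fads2 (-0.05) ranged from -0.16 to 0.03; the cause was not tested. Over 157 values of the 10 members under the alternatives, 135 kept their direction and side of the threshold, 6 lost the call, 5 gained it and 11 turned sign. These include 16 values of Elovl3, the gene chosen for its rise in these livers, so the counts only describe the fits. No paired analysis was possible because the groups share no mouse numbers.

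With 4 mice per group, changes of the size seen in most members were within the spread between mice, and Elovl7 was read from as few as 31 counts.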
